A study of Mus musculus with 18 samples.

Results

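H3K36me2 islands inside short and mid-length genes are stretches of enriched H3K36 dimethylation that lie within the body of a protein-coding gene shorter than 300 kb. An island was taken when it lay on chromosomes 1 to 19, overlapped at least 1 protein-coding gene, overlapped no such gene of 300 kb or more, and lay more than 1 kb from every protein-coding gene end. By this rule 4683 of the 13409 islands (34.9%) were members, covering 25.1 Mb. They lay in 2374 host genes, which is 11.8% of the 20132 protein-coding genes that could hold one. No value of the islands entered the rule.

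The mutant mice were Krt14-Cre(+); LSL-H3K36M and the WT mice were Krt14-Cre(-); LSL-H3K36M, so both genotypes carried the stop-controlled H3K36M construct and only the first carried the Cre. Epidermis was made into a single-cell suspension from 3 animals per genotype, and each animal gave 1 CUT&RUN library for H3K36me2 and 1 for H3K27me3, a method in which an antibody guides a nuclease that releases marked chromatin. The Krt14 promoter drives Cre in keratin-14 tissues, so cells of other origin in the suspension need not carry the mutant histone. The sources used here do not give the age of the mice. The island counts are pooled over the animals of a genotype, so fewer cells of a type and less mark per cell cannot be told apart, and the spread between animals is unknown.

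Histone H3 lysine 36 is dimethylated mainly by NSD1 and NSD2, which act over broad regions between and inside genes, while SETD2 travels with RNA polymerase II and adds the trimethyl mark over transcribed bodies, most densely towards their ends. H3K36M replaces this lysine by methionine and blocks the methyltransferases in trans. H3K36me2 and H3K36me3 hinder the Polycomb enzyme EZH2, which writes H3K27me3, on the same histone tail. Gene bodies can therefore hold H3K36me2 together with other forms of lysine 36, and only the dimethyl form was measured here.

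Most members overlapped no annotated start, but 181 of them overlapped the promoter window of a further transcription start, taken as 250 bases before to 50 bases after the start in the RefSeq table of GRCm38.p6. In 105 of these the start was an internal one of the host gene itself. A total of 3 such promoters are shown because they sit in strongly called islands of either direction, chosen by FDR within each direction, with each CG dinucleotide, the site of DNA methylation, in capitals. The island at Klk5, a serine protease gene of the outer epidermis, and the island at Pkig, a protein kinase A inhibitor gene, were called lower. The island at Agrn, a basement membrane proteoglycan gene, was called higher, and higher islands at Mup-ps12 and C130026I21Rik are passed over because near-identical gene copies can share reads there. The windows are chr7:43842019-43842318 on the plus strand for Klk5, chr2:163693787-163694086 on the plus strand for Pkig and chr4:156186210-156186509 on the minus strand for Agrn.
Klk5 internal promoter: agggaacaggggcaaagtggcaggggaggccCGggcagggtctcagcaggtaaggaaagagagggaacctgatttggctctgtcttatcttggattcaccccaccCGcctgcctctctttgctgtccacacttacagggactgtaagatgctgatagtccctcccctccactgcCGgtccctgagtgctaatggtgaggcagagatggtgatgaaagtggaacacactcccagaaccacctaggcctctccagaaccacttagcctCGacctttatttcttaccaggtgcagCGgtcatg
Pkig internal promoter: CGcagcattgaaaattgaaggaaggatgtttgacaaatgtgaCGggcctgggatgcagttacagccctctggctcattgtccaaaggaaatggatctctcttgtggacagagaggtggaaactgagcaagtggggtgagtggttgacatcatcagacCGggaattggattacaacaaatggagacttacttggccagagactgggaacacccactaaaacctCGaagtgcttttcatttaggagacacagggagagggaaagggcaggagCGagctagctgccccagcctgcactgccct
Agrn internal promoter: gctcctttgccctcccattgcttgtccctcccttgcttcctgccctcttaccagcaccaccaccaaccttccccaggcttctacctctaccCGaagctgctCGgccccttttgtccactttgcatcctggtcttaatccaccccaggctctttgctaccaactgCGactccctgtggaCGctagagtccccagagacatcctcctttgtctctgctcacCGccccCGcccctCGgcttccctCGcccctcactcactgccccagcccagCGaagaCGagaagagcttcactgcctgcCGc

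The Klk5 and Pkig windows held 5 CG dinucleotides each and the Agrn window held 11. Over the 115 internal promoters of host genes that lay in members, the median was 5 CG, and 96.5% held at least 1, against a median of 7 and 94.6% over all 32851 promoters of the table. The ratio of observed to expected CG exceeded 0.6 in 6.96% of the internal promoters in members and in 35.8% of all promoters. All promoters include the starts at gene ends, which the rule keeps out of members. Internal promoters outside members were not examined, so this difference cannot be credited to the islands. CG reads the same on both strands. The island at Klk5 had 72 mutant and 129 WT reads, a ratio of 0.444 after each count was scaled to the depth of its pool (RPM), the island at Pkig had 292 mutant and 382 WT reads, a ratio of 0.608, and the island at Agrn had 182 mutant and 89 WT reads, a ratio of 1.63.

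Members also held 16 miRNA genes with 27 mature sequences in the RefSeq table, of which 8 lay in islands called higher, 6 in islands called lower and 2 in islands called neither way. The 4 sequences below are shown because they lie in the most strongly called islands of each direction, with the seed (bases 2 to 8) in capitals. The first pair lies in Smc4, which encodes a condensin subunit, and shares the seed AGCAGCA of the miR-15 and miR-16 family.
mmu-miR-15b-5p: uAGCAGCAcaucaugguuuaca
mmu-miR-16-5p: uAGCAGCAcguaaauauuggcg
mmu-miR-6385: gCAAGGAUgacagagaggaag
mmu-miR-5124a: gGUCCAGUgacuaagagcau

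The Smc4 island that spans both miR-15b and miR-16-2, at chr3:69008401-69014000, had 260 mutant and 141 WT reads, a ratio of 1.47 with an exact 95% binomial interval of 1.19 to 1.81. The Pml island that spans miR-6385, at chr9:58219001-58225400, had 268 mutant and 135 WT reads, a ratio of 1.58 (1.28 to 1.96), and Pml encodes the organiser of PML nuclear bodies. The Gcnt2 island that spans miR-5124a, at chr13:40863201-40868800, had 177 mutant and 193 WT reads, a ratio of 0.730 (0.592 to 0.899), and Gcnt2 encodes a branching glycosyltransferase. Intervals here and below are exact binomial intervals at the deposited scaling and cover counting error only. The mark, not the miRNA, was measured.

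The first comparison asked how H3K36me2 inside these genes differed between mutant and WT epidermis, the mutant carrying the histone that blocks the enzymes of the mark. Members were split between losses and gains. At the authors' FDR under 0.05, 1828 members (39.0%) were called lower in the mutant, where 58.1% of all islands were called lower. In the other direction 1417 members (30.3%) were called higher, where 17.3% of all islands were called higher, and 1438 members passed in neither direction. Members made up 61.0% of all islands called higher and 23.5% of all islands called lower.

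The members summed to 958809 mutant and 802635 WT reads out of 59539924 mutant and 47361190 WT reads behind the RPM scale. A median member held 173 mutant and 149 WT reads over 4800 bp, and 15 members had fewer than 100 reads over both pools. The median level of members was 0.643 RPM per kb in the mutant and 0.658 RPM per kb in WT. The median log2 ratio of RPM, mutant over WT, was -0.03 for members and -0.30 for all islands. The quartiles of the members were -0.35 and 0.32. Islands inside genes of 300 kb or more had a median log2 ratio of -0.31, with 61.3% called lower and 13.6% called higher. Islands within 1 kb of a gene end had a median of -0.21, and islands outside gene bodies a median of -0.47. No test of the differences between these locations was made, since islands are not replicates of a genotype.

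The members did not gather around a ratio of 1. They were most frequent between log2 ratios of -0.4 and -0.3, which held 428 members, and again between 0.2 and 0.3, which held 386 members. The bin between 0 and 0.1 held 300 members. Islands outside gene bodies gathered between -0.5 and -0.4, which held 869 of 5900, and 149 of them lay between 0.2 and 0.3. Of the members with the fewest reads per kb 3.59% lay within 0.1 of a log2 ratio of 0, against 22.2% of the densest. Islands were found in these same reads, and the part of that choice in the shape of the distribution was not tested.

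**Figure D1:**
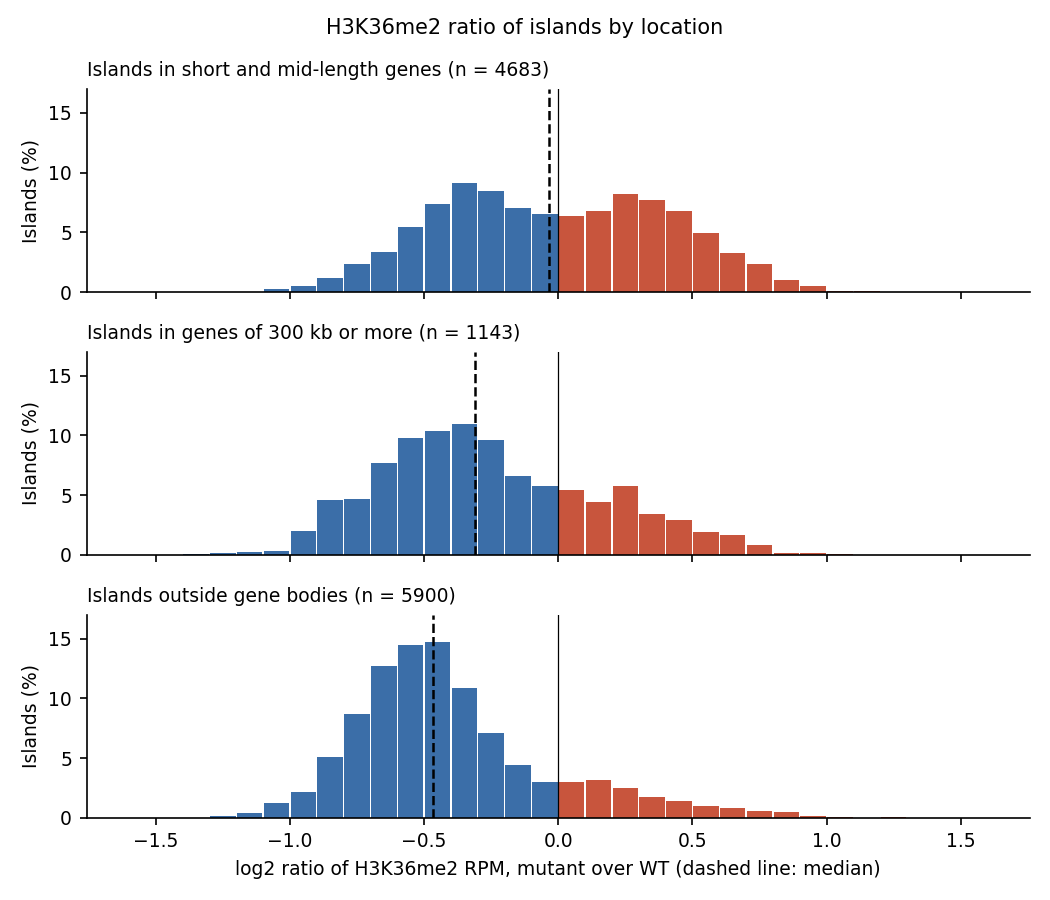
Share of islands (y axis, %) by log2 ratio of H3K36me2 RPM, mutant over WT (x axis, bins of 0.1), for 4683 islands in short and mid-length genes, 1143 in genes of 300 kb or more and 5900 outside gene bodies, with dashed lines at the medians of -0.03, -0.31 and -0.47. Members form peaks on either side of 0, and 1 member and 1 island outside gene bodies lie beyond the axis.

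This split depends on the scaling of the pools. Relative to the median ratio of all islands, 0.815, the members had a median log2 ratio of 0.26, and an exact binomial test with Benjamini-Hochberg adjustment over all islands called 225 members (4.80%) lower, where it called 13.8% of all islands lower. The same test called 2079 members (44.4%) higher, where it called 27.8% of all islands higher. Division by that median also takes away any loss shared by all islands, and the 2 cannot be told apart without a spike-in. At the deposited scaling the exact binomial test kept 1285 of 1828 lower calls and 903 of 1417 higher calls. Both tests compare the pools and not the animals.

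Members in shorter genes leaned to higher ratios than members in longer ones. In host genes under 30 kb, 490 members had a median log2 ratio of 0.10, with 159 called lower and 171 called higher. In genes of 30 to 100 kb, 1862 members had a median of 0.04, with 653 lower and 629 higher. In genes of 100 to 300 kb, 2331 members had a median of -0.10, with 1016 lower and 617 higher. Spearman's rank correlation between the log2 ratio and gene length was -0.10 over the 4683 members, which share their pools and often their gene, so the relation is weak. Relative to the all-island median, members called higher outnumbered members called lower in all of these classes, for example 253 higher and 19 lower under 30 kb.

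Distance from the nearest gene end added little to gene length. Members 1 to 5 kb from an end had a median log2 ratio of 0.06, members 5 to 20 kb away -0.01 and members over 20 kb away -0.07. Within genes of 100 to 300 kb the medians for the 2 nearer distance classes were -0.10 and -0.11. Within genes of 30 to 100 kb they were 0.06 and 0.02. Gene length and distance were themselves related, with a rank correlation of 0.67.

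Position along the direction of transcription separated members more clearly. For the 3615 members with 1 host gene and a listed strand, each gene was divided into 10 equal parts. The median log2 ratio was -0.12 in the part nearest the start and 0.22 in the part nearest the end. Between them the medians were -0.15, -0.10, -0.06, -0.03, 0.03, 0.05, 0.09 and 0.16, so they climbed at each step after the second part. With each gene divided into 3 equal parts, the part nearest the start held 1329 members, of which 593 (44.6%) were called lower and 312 (23.5%) higher. The part nearest the end held 910 members, of which 296 (32.5%) were called lower and 376 (41.3%) higher. The middle part lay between, with 523 called lower and 421 called higher of 1376 members. When ratios were divided by the all-island median, higher calls prevailed in each part, with 64 lower and 493 higher nearest the start and 43 lower and 499 higher nearest the end.

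**Figure D2:**
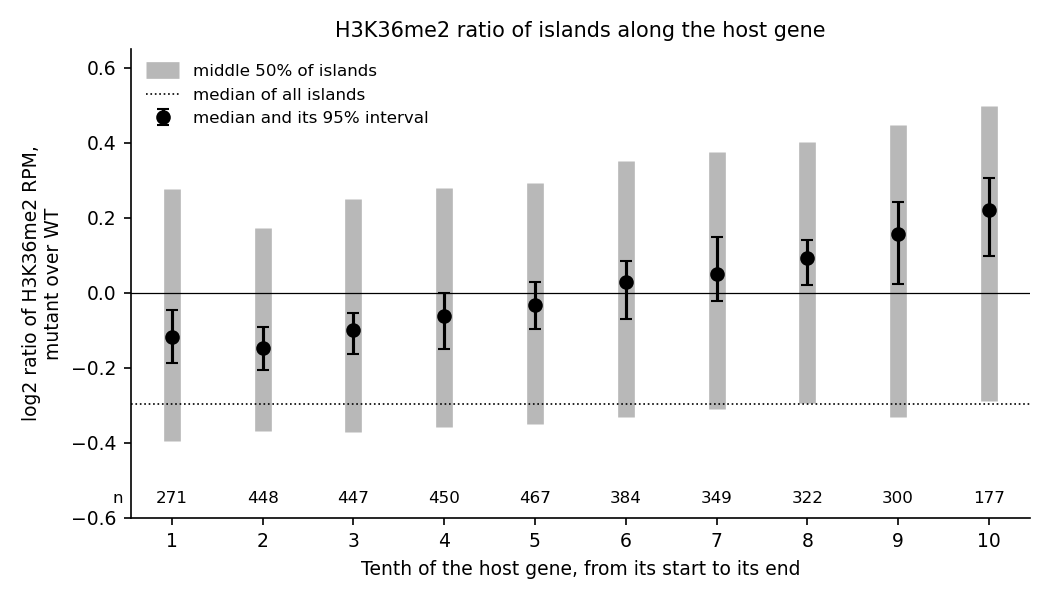
Log2 ratio of H3K36me2 RPM, mutant over WT (y axis), of 3615 islands in 10 equal parts of the host gene from start to end (x axis), with medians and order-statistic 95% intervals over islands (points and bars), the middle 50% of islands (grey) and the number of islands. The median runs between -0.12 near the start and 0.22 near the end, and all medians lie above the dotted all-island median of -0.30.

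The median levels of both genotypes differed between gene starts and gene ends. Near gene starts the median level was 0.630 RPM per kb in the mutant and 0.671 RPM per kb in WT. Near gene ends it was 0.658 RPM per kb in the mutant and 0.626 RPM per kb in WT. The mutant level was thus higher near gene ends than near starts, and the WT level was lower there. Islands were found in these same reads and their ratios come from these levels, so the levels are no separate support for the slope.

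The slope appeared within genes as well as between them. Of the 244 genes with members in both the part nearest the start and the part nearest the end, 168 (68.9%) had the higher median ratio near the end. The median difference within a gene, end minus start, was 0.20 on the log2 scale, with quartiles of -0.09 and 0.46. On 17 of the 18 chromosomes with strand information the members near gene ends had the higher median, by up to 0.55 on chromosome 19. Chromosome 15 was the exception, with a difference of -0.20. In genes of 100 to 300 kb the median was -0.19 near the start and 0.07 near the end. In genes of 30 to 100 kb it was -0.06 near the start and 0.23 near the end, and under 30 kb 0.08 near the start and 0.22 near the end. In genes of 300 kb or more the medians were -0.34 near the start and -0.23 near the end. The rank correlation of 0.14 between the log2 ratio and relative position over the 3615 members was small.

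Narrow members leaned to higher ratios than wide ones, and sparse members had a wider spread of ratios than dense ones. Members of 200 to 4000 bp had a median log2 ratio of 0.29, with 363 lower and 785 higher of 1595. Members of 4200 to 5600 bp had a median of -0.10, and members of 5800 to 43200 bp a median of -0.19, with 803 lower and 207 higher of 1524, which became 88 lower and 441 higher relative to the all-island median. Spearman's rank correlation between the log2 ratio and width was -0.35. By read density, averaged over both genotypes, the least dense members had a median of 0.22, with 620 called lower and 725 called higher of 1561, and 3.59% of them lay within 0.1 of a log2 ratio of 0. Among the densest members 22.2% lay that close to 0. Islands were found in these same reads, and the part of that choice in the calls of sparse members was not tested.

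At each width the median ratio was higher near gene ends than near starts, by little among the widest members. Among the narrowest members the medians were 0.24 near the start and 0.37 near the end. At the middle width they were -0.20 near the start and 0.03 near the end, and among the widest -0.19 near the start and -0.15 near the end. Among the least dense members the medians were -0.19 near the start and 0.35 near the end, and among the densest -0.09 near the start and 0.03 near the end. Neighbouring members of a gene resembled each other, with a rank correlation of 0.46 over 2303 adjacent pairs at a median gap of 7.0 kb.

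The largest ratio belonged to an island in Arhgap10, which encodes a GTPase-activating protein, at chr8:77350001-77351800. It had 100 mutant and 28 WT reads, a ratio of 2.84 (1.85 to 4.49). Ngly1, which encodes an enzyme that strips N-glycans from misfolded proteins, came next with 167 mutant and 57 WT reads and a ratio of 2.33 (1.72 to 3.21). Rev3l, the catalytic subunit of DNA polymerase zeta, had 140 mutant and 48 WT reads and a ratio of 2.32 (1.66 to 3.29). In these 3 islands the mutant level was more than double the WT level, and no interval reached 1. They were picked for their high ratios in the same reads, so these intervals are no separate support.

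Ago3, an Argonaute gene of small RNA silencing, followed with 99 mutant and 35 WT reads, a ratio of 2.25. Osbpl3, an oxysterol-binding protein gene, had 110 mutant and 39 WT reads, a ratio of 2.24. Terf1, a telomere-binding shelterin gene, had 176 mutant and 64 WT reads, a ratio of 2.19. Mical2, an actin-oxidising monooxygenase gene, had 110 mutant and 41 WT reads, a ratio of 2.13. Gm21119, at 46 mutant and 16 WT reads, had a ratio of 2.29 on an island of 400 bp. All 1417 members called higher were also called higher by the exact binomial test relative to the all-island median. That these islands passed it is therefore no separate support.

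The smallest ratio was in Wnt2, which encodes a secreted WNT ligand. Its island of 400 bp at chr6:17999801-18000200 had 11 mutant and 48 WT reads, a ratio of 0.182 (0.0854 to 0.356). Fam169a had 55 mutant and 101 WT reads, a ratio of 0.433 (0.306 to 0.607), and Klk5 followed with the ratio given beside its sequence. Cd96, a receptor gene of T and NK cells, had 83 mutant and 146 WT reads, a ratio of 0.452 (0.341 to 0.596). Wnt2 had the lowest ratio on the fewest reads of these islands.

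Aldh1a7, an aldehyde dehydrogenase gene, had 73 mutant and 123 WT reads, a ratio of 0.472. Col28a1, a collagen gene, had 3.43 RPM in the mutant and 7.20 RPM in WT, a ratio of 0.476 (0.398 to 0.568). Slc13a4, a sulfate transporter gene, had 132 mutant and 219 WT reads, a ratio of 0.480 (0.383 to 0.598). D7Ertd443e completed the 8 lowest with 120 mutant and 203 WT reads, a ratio of 0.470. These 8 islands passed the exact binomial test relative to the all-island median, as did 225 of the 1828 members called lower. They were picked for their low ratios in the same reads, so this too is no separate support.

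The densest member was a stretch of 1000 bp in Chl1, a neural cell adhesion gene, with 11309 mutant and 10667 WT reads, a ratio of 0.843 (0.821 to 0.866). Its level was 189.9 RPM per kb in the mutant and 225 RPM per kb in WT, while the next densest member, in Kctd16, had 14.8 RPM per kb in the mutant and 16.5 RPM per kb in WT. Jarid2, a Polycomb accessory subunit gene, held a dense island of 800 bp with 289 mutant and 218 WT reads, a ratio of 1.05 (0.881 to 1.26), called neither way.

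Of the 2374 host genes, 1428 had 1 member, 435 had 2 and 511 had 3 or more. A member called lower lay in 1155 genes and a member called higher in 1036, and 256 genes held both. Among genes with 3 or more members, 78 had every member called lower, 20 had every member called higher and 202 held both calls. Single genes were therefore often mixed.

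Pdgfc, which encodes a platelet-derived growth factor ligand, had all 9 of its members called lower. Together they had 1442 mutant and 1850 WT reads, a ratio of 0.620 (0.578 to 0.665), and single islands had ratios between 0.550 and 0.714. Atp10a, a phospholipid flippase gene, had 8 of 8 members lower, with a ratio of 0.650 (0.614 to 0.688). Ninj2, a cell adhesion gene, had 8 of 8 lower, with a ratio of 0.689 (0.646 to 0.734), and Ccdc192 had 8 of 8 lower, with a ratio of 0.587 (0.551 to 0.625). Bcl2, the anti-apoptotic regulator, was mixed, with 9 of 11 members lower, 1 higher and a summed ratio of 0.832 (0.784 to 0.882). The summed intervals of the first 4 genes lay below the all-island ratio of 0.815, and that of Bcl2 included it. These genes were picked for their many lower calls in the same reads, so the summed ratios are no separate support.

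In the other direction, Clec16a, an autophagy and endosome gene, had 7 of 12 members called higher and none lower. Together they had 2639 mutant and 1768 WT reads, a ratio of 1.19 (1.12 to 1.26). D430042O09Rik had 7 of 8 members higher and 1 lower, with a ratio of 1.18 (1.09 to 1.27). Antxr1, an anthrax toxin receptor and collagen-binding protein gene, had 6 of 9 higher and none lower, with a ratio of 1.19 (1.10 to 1.28). Mical3, an actin-oxidising monooxygenase gene, had 6 of 14 higher and none lower, with a ratio of 1.14 (1.07 to 1.21). Sh3pxd2a, a podosome scaffold gene, had 6 of 10 higher and 1 lower, with a ratio of 1.13 (1.05 to 1.21). As with the lower genes, these were picked for their many higher calls in the same reads. Their summed ratios and intervals are therefore no separate support.

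**Figure D3:**
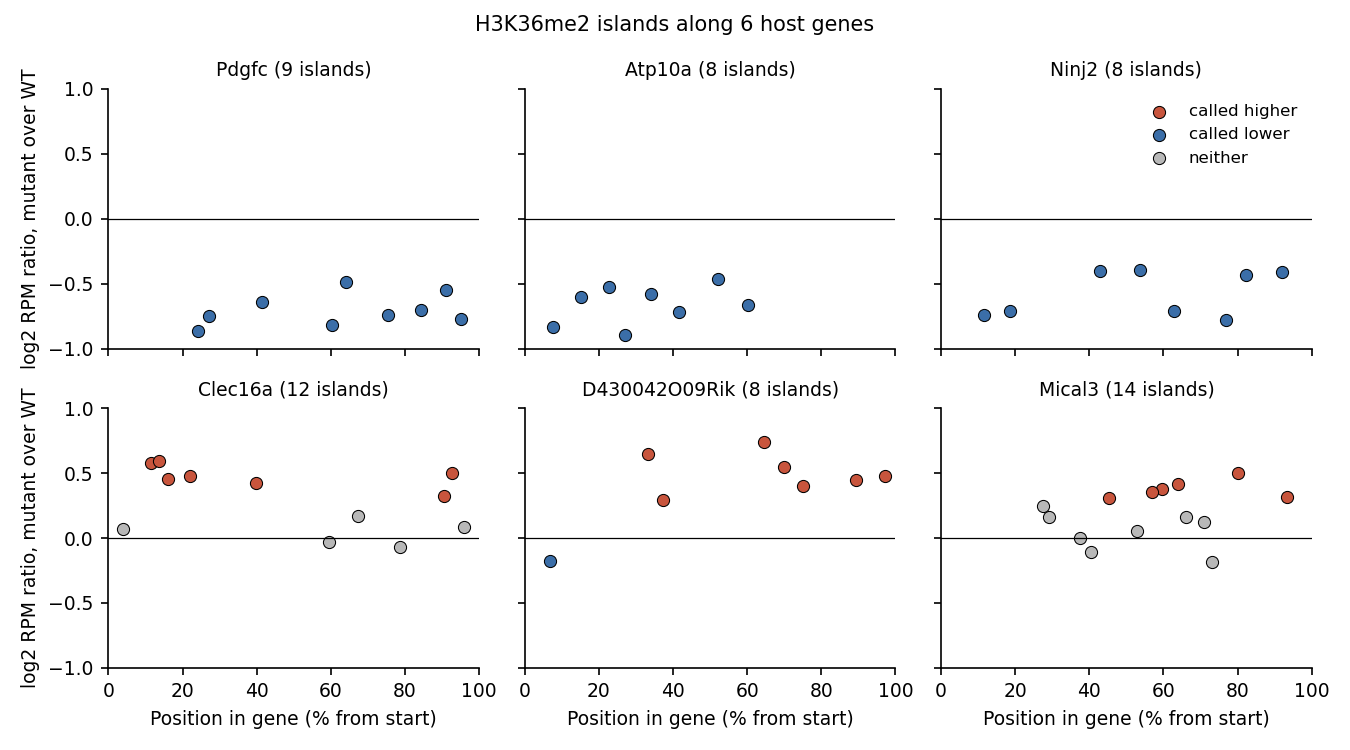
Log2 ratio of H3K36me2 RPM, mutant over WT (y axis), of single islands by position in the host gene (x axis, % from the start) in 6 genes with many members called 1 way, coloured by call. All islands of Pdgfc, Atp10a and Ninj2 lie below 0, while Clec16a, D430042O09Rik and Mical3 mix higher islands with islands near 0 and 1 lower island in D430042O09Rik.

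The 3 genes with the most members held calls in both directions. Nfib, a transcription factor gene of hair follicle stem cells, held 17 members with 3 called lower and 3 higher, and a summed ratio of 1.02 (0.979 to 1.07). Asap1, an Arf GTPase-activating protein gene, held 16 members with 5 lower and 4 higher and a ratio of 1.01 (0.959 to 1.06). Cers6, a ceramide synthase gene, held 16 members with 3 lower and 6 higher and a ratio of 1.03 (0.982 to 1.07). Within such a gene the single islands still differed: Nfib islands had ratios between 0.791 and 1.72, and Cers6 islands between 0.801 and 1.92.

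Host genes were grouped by known function, and each group is described by its counts beside the members as a whole, of which 39.0% were lower and 30.3% higher. In the DNA replication, repair and cell cycle group, 15 of 65 eligible genes held 25 members, of which 1 was called lower and 17 higher, with a median log2 ratio of 0.37. Rev3l and Smc4, given above, were among the higher ones. Rb1, the retinoblastoma tumour suppressor, had 3 of 4 members higher and a summed ratio of 1.38 (1.21 to 1.56). Smc2, the partner of Smc4 in condensin, had 116 mutant and 60 WT reads, a ratio of 1.54 (1.12 to 2.14). The lower island was 1 of 6 in Cdk6, a G1 kinase gene. Under division by the all-island median 22 of these 25 members were called higher and 0 lower, where 44.4% of all members were higher and 4.80% lower. Their median width was 3800 bp, against 4800 bp for all members, and their median position 60.4% of the way along the gene. The part of width and position in this count was not tested.

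Other groups of widely used genes also leaned to higher calls. Of 19 members in RNA processing and translation genes, 2 were lower and 8 higher, with a median log2 ratio of 0.25. Drosha, the nuclear miRNA-processing nuclease, had both members higher, with a ratio of 1.37 (1.13 to 1.66). Of 30 members in ubiquitin, autophagy and trafficking genes, 5 were lower and 13 higher, but 7 of the 13 came from Clec16a. Of 20 members in genes for H3K36, Polycomb and DNA methylation enzymes, 3 were lower and 8 higher. Among these, Ezh2, the H3K27 methyltransferase, had 210 mutant and 118 WT reads, a ratio of 1.42 (1.12 to 1.79). Dnmt3a, the de novo DNA methyltransferase that reads H3K36me2, had 132 mutant and 69 WT reads, a ratio of 1.52 (1.13 to 2.07). Nsd3, an H3K36 methyltransferase gene, was called lower, with 166 mutant and 183 WT reads and a ratio of 0.722 (0.581 to 0.895).

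Among epidermal genes, basal keratinocyte and junction genes differed in their counts from differentiation genes. Of 55 members in 20 basal and junction genes, 10 were lower and 21 higher, with a median log2 ratio of 0.18. Cdh1, the epithelial cadherin, had all 3 members higher, with 795 mutant and 465 WT reads and a ratio of 1.36 (1.21 to 1.53). Trp63, the master regulator of stratified epithelium, had 12 members with 2 lower and 5 higher and a summed ratio of 1.13 (1.07 to 1.19). Lamb3, a laminin-332 subunit gene, had 2 of 4 members higher and a ratio of 1.13 (1.03 to 1.24). In contrast, Itgb1, the beta-1 integrin, had both members lower, with a ratio of 0.708 (0.601 to 0.834).

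Of 15 members in epidermal differentiation and barrier genes, 9 were lower and 4 higher, with a median log2 ratio of -0.30. Besides Klk5, the protease inhibitor gene Spink5 had 93 mutant and 149 WT reads, a ratio of 0.496 (0.379 to 0.648). Aloxe3, an epidermal lipoxygenase gene, had 134 mutant and 149 WT reads, a ratio of 0.715 (0.562 to 0.910). Cers3, a ceramide synthase gene of the skin barrier, went the other way, with 126 mutant and 59 WT reads and a ratio of 1.70 (1.24 to 2.36). Relative to the all-island median, 3 of the 15 were called lower and 4 higher, where 4.80% of all members were lower and 44.4% higher. Under that scaling the group thus kept a larger lower share and a smaller higher share than members as a whole. No test of the difference between the 2 epidermal groups was made.

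**Figure D4:**
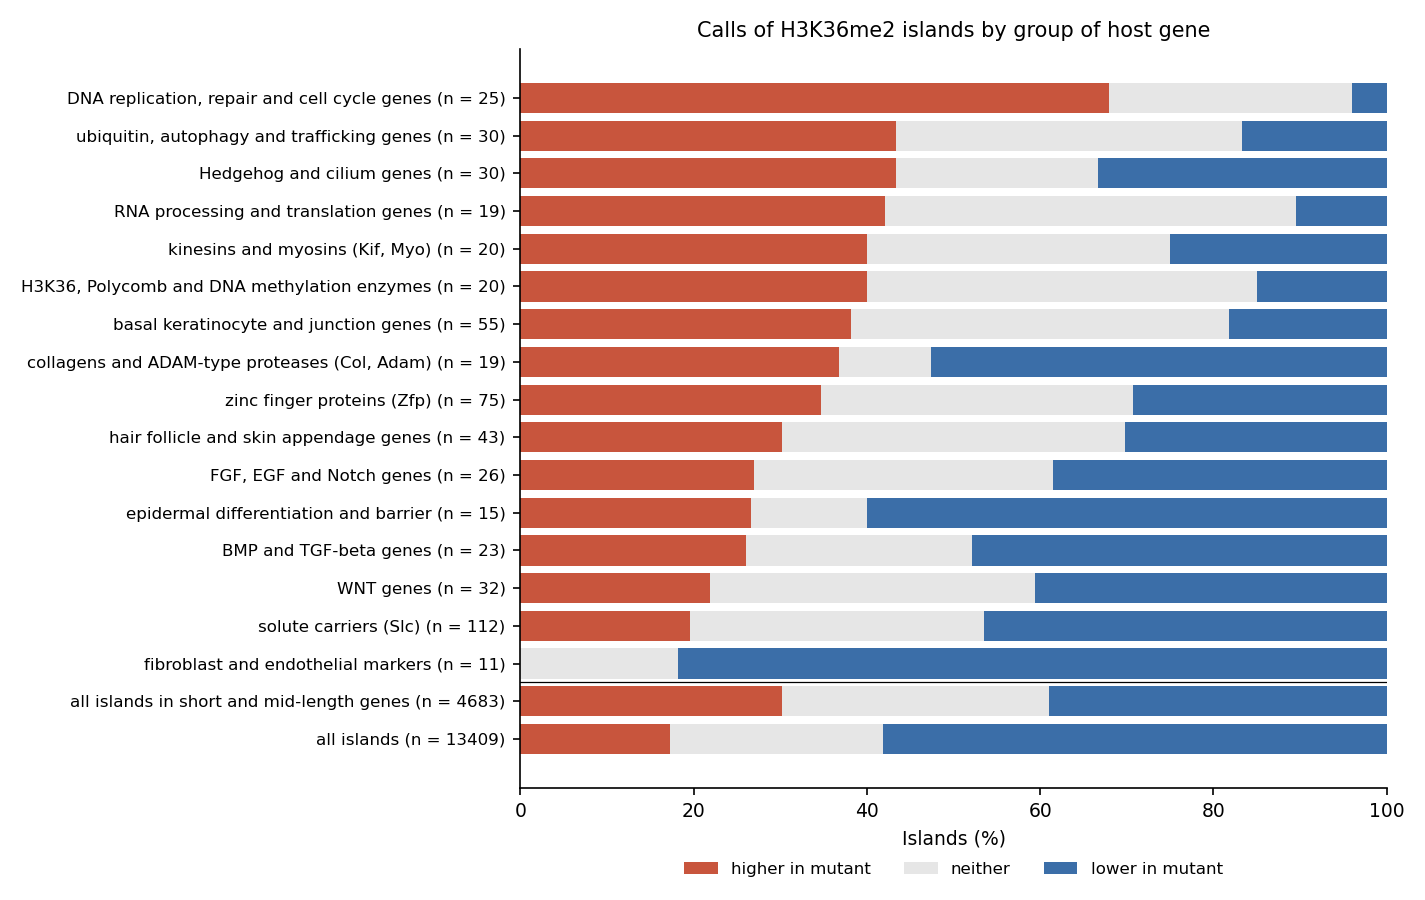
Share of islands (x axis, %) called higher in the mutant, neither way and lower in the mutant, for the groups of host genes shown, each with at least 10 islands (rows, number of islands in brackets), above all 4683 islands in short and mid-length genes and all 13409 islands. DNA replication, repair and cell cycle genes have the most higher calls (17 of 25), and fibroblast and endothelial marker genes have 9 of 11 lower and none higher.

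Signalling genes were mixed, and some of them had all their members called in 1 direction. Of 32 members in WNT genes 13 were lower and 7 higher. Sfrp1, a secreted WNT inhibitor gene, had all 3 members lower and a ratio of 0.619 (0.546 to 0.702), and Znrf3, a membrane ligase that removes WNT receptors, had 5 of 7 lower and a ratio of 0.782 (0.723 to 0.845). Apc, which scaffolds the beta-catenin destruction complex, had both members higher and a ratio of 1.61 (1.33 to 1.95). Of 30 members in Hedgehog and cilium genes 10 were lower and 13 higher. Sufu, the inhibitor of GLI factors, had 3 of 3 higher and a ratio of 1.35 (1.18 to 1.55). Gli3, a GLI transcription factor gene, had 6 of 7 lower and 1 higher, with a ratio of 0.844 (0.784 to 0.909), and Cdon, a Hedgehog co-receptor gene, had both lower and a ratio of 0.659 (0.549 to 0.790).

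Of 23 members in BMP and TGF-beta genes 11 were lower and 6 higher. Tgfb2, a TGF-beta ligand gene, had both members lower and a ratio of 0.656 (0.586 to 0.734). Tgfbr3, its co-receptor gene, had 4 of 4 lower and a ratio of 0.707 (0.637 to 0.783). Bmp1, a procollagen protease gene, was higher, with 168 mutant and 77 WT reads and a ratio of 1.74 (1.32 to 2.30). Of 26 members in FGF, EGF and Notch genes 10 were lower and 7 higher, and the 10 members in Egfr, the epidermal growth factor receptor, split into 3 lower, 3 higher and 4 neither way. Of 43 members in hair follicle and appendage genes 13 were lower and 13 higher. Among these, Prlr, the prolactin receptor, had 5 of 5 lower and a ratio of 0.654 (0.598 to 0.716), and Tcf7l2, a WNT effector, had 3 of 4 higher. Relative to the all-island median, 3 of 32 were lower and 14 higher in WNT genes, and 1 of 23 lower and 11 higher in BMP and TGF-beta genes. In FGF, EGF and Notch genes 0 of 26 were lower and 10 higher. That scaling called 4.80% of all members lower and 44.4% higher, so higher calls prevailed among members in general.

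Gene families varied in their counts. Of 112 members in solute carriers 52 were lower and 22 higher, with a median log2 ratio of -0.19, and Slc7a11, the cystine transporter, had an island with 100 mutant and 162 WT reads and a ratio of 0.491 (0.379 to 0.634). Of 75 members in Zfp zinc finger genes 22 were lower and 26 higher. Kinesins and myosins had 5 lower and 8 higher of 20, collagens and ADAM-type proteases 10 lower and 7 higher of 19, ubiquitin-specific proteases 3 lower and 5 higher of 8, and cadherins and protocadherins 1 lower and 3 higher of 5. Olfactory and vomeronasal receptors held 3 members in 2 of 1456 genes, all called neither way. After division by the all-island median, solute carriers had 8 lower and 39 higher of 112. Collagens and ADAM-type proteases had 2 lower and 8 higher of 19. The same division called 4.80% of all members lower and 44.4% higher, so higher calls prevailed among members in general.

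Among markers of other cell types, members were called lower more often than higher at the deposited scaling. Fibroblast and endothelial markers held 11 members in 6 of 20 genes, where 11.8% of all eligible genes held one, and of these members 9 were lower and 0 higher, with a median log2 ratio of -0.43. Pecam1, an endothelial adhesion gene, had 522 mutant and 568 WT reads over 4 islands, a ratio of 0.731 (0.648 to 0.825), and Tek, the angiopoietin receptor, had 137 mutant and 171 WT reads, a ratio of 0.637 (0.505 to 0.803). Flt1, an endothelial receptor gene, went the other way, with 153 mutant and 106 WT reads, a ratio of 1.15 (0.890 to 1.49), called neither way. Relative to the all-island median none of these 11 members was called lower and 1 was called higher. That scaling called 4.80% of all members lower and 44.4% higher. The only member in an immune marker was in Itgam, the only one in a melanocyte marker in Mitf and the only one in a neuronal gene in Slc1a2, and all 3 were called lower. The 3 members in skeletal muscle genes were lower, and relative to the all-island median Itgam alone of these 6 stayed lower. Merkel cell markers held none. The part of other cell types in these counts was not tested.

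The second comparison asked what H3K27me3 did where these islands lay. Of the short windows tested in the authors' DiffBind table, 8.54% were called rising (higher in the mutant) and 15.2% falling at an FDR under 0.05. Such a window lay in 47 of the 4683 members (1.0%), against 292 of all 13409 islands (2.18%). A rising window lay in 44 of the 47 members and a falling one in 3. Of the members with a rising window 38 were called lower in H3K36me2, 2 higher and 4 neither way. Over all islands, members included, 267 of the 286 islands with a rising window were called lower.

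In the authors' deposited table the H3K27me3 window in Bfsp1, a lens filament gene, had mean normalised reads of 21.5 in the mutant and 4.25 in WT. The H3K36me2 island around it had 375 mutant and 412 WT reads, a ratio of 0.724 (0.628 to 0.835). In the authors' deposited table the window in Dgkh, a diacylglycerol kinase gene, had 24.5 in the mutant and 5.84 in WT. Its island had 104 mutant and 131 WT reads, a ratio of 0.632 (0.483 to 0.823). In both genes H3K27me3 was higher and H3K36me2 lower in the mutant.

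The window in E130308A19Rik had 15.5 in the mutant and 1.79 in WT in the authors' deposited table, and its island had a ratio of 0.596 (0.515 to 0.688). The window in Acer3, an alkaline ceramidase gene, had 15.0 in the mutant and 2.37 in WT in the authors' deposited table, and its island a ratio of 0.689 (0.541 to 0.878). The window in Met, the hepatocyte growth factor receptor, had 12 in the mutant and 2.38 in WT in the authors' deposited table, and its island a ratio of 0.829 (0.724 to 0.948). Mrvi1 and Ninj2 showed the same pair of calls, while the island of Gm973 passed in neither direction. Over the 44 rising windows the median level was 10.1 normalised reads in the mutant and 2.10 in WT, and 10 of them had a WT mean at the floor of 1 read.

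The 3 falling windows lay in Mical2, Morn1 and Lasp1. In the authors' deposited table the window in Mical2 had 4.19 in the mutant and 15.3 in WT, and it lay in the Mical2 island with a ratio of 2.13 named above. The window in Morn1 had 3.06 in the mutant and 11.5 in WT in the authors' deposited table, in an island called lower with a ratio of 0.821 (0.678 to 0.994). The window in Lasp1, an actin-binding protein gene, had 1.78 in the mutant and 7.0 in WT in the authors' deposited table, in an island with a ratio of 0.958 (0.776 to 1.18). Of these 3, the Mical2 island alone combined a fall of H3K27me3 with a rise of H3K36me2.

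**Figure D5:**
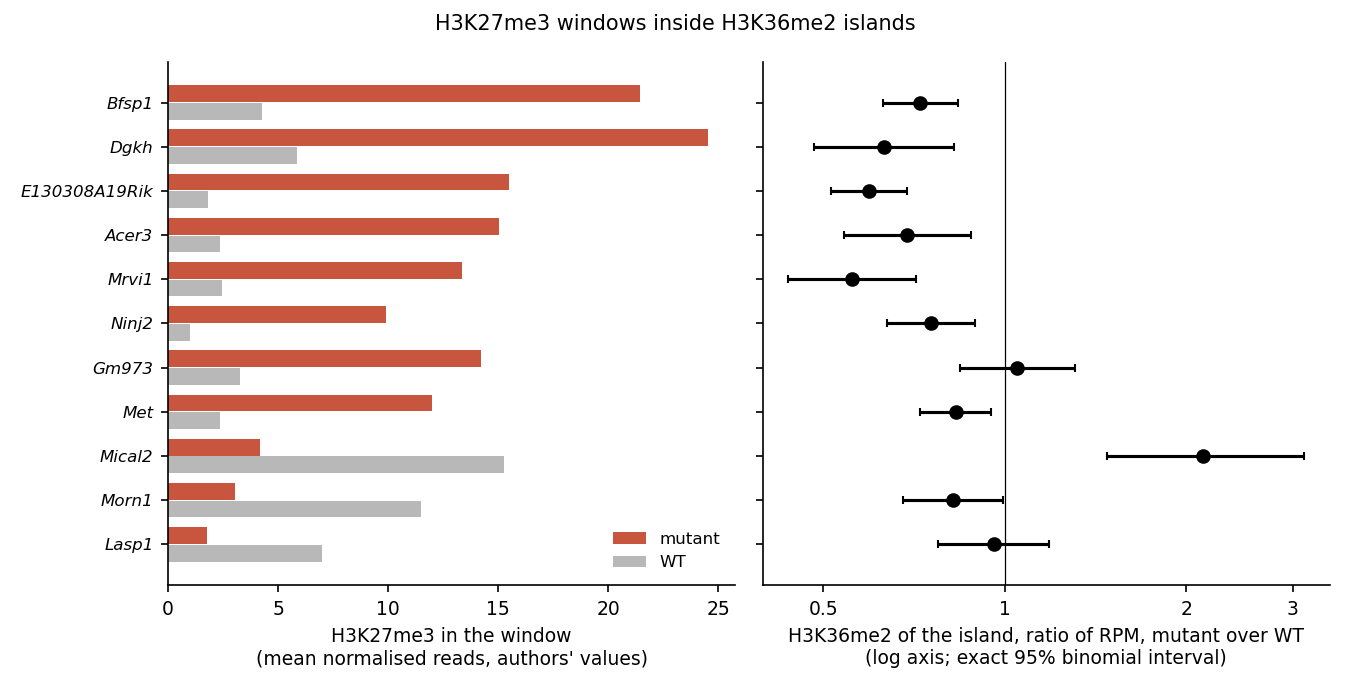
H3K27me3 of single windows (left, mean normalised reads per genotype from the authors) and H3K36me2 ratio of the island around each (right, mutant over WT on a log axis, with exact 95% binomial intervals) for the 8 rising windows with the lowest p and all 3 falling windows. The 8 upper genes have more H3K27me3 in the mutant, and 7 of their islands have a ratio below 1.

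The authors' DiffBind table of H3K36me2 itself listed 4.04% of its windows at a nominal p under 0.05 and none at an FDR under 0.05. Such a window lay in 46 members. A falling window lay in 34 members called lower and none called higher, and a rising one in 8 members called higher and 1 called lower, the last in Efcab1. The 2 H3K36me2 tables rest on the same libraries, so this is a second summary of the same reads.

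Members over internal starts were set beside those without one. The 105 members over a further start of their host gene had a median log2 ratio of -0.19, with 56 called lower and 15 higher. Relative to the all-island median, 11 of them (10.5%) were lower and 29 (27.6%) higher. The 76 members over a start of another gene alone had a median of -0.03, with 32 lower and 20 higher. The 4502 members over no listed start had a median of -0.03, with 1740 lower and 1382 higher. Relative to the all-island median the 76 had 3 lower (3.95%) and 35 higher (46.1%), and the 4502 had 211 lower (4.69%) and 2015 higher (44.8%). Members over a further start of their host gene thus had the larger lower share and the smaller higher share under both scalings. Median widths were 5600 bp for these 105 members, 5900 bp for the 76 and 4800 bp for the 4502. The part of width and of position along the gene in these shares was not tested.

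At the margins of the rule, the member nearest a gene end lay 1007 bp away in Rprd1b, an RNA polymerase II regulator gene, with 149 mutant and 63 WT reads and a ratio of 1.88. An island in Dvl1, a WNT signal transducer gene, lay 999 bp away and was left out, with 194 mutant and 203 WT reads and a ratio of 0.760. The longest host gene, Akap13, of 299084 bp, held 2 members with ratios of 0.800 and 0.778. Cmss1, of 304869 bp, was left out, and 2 of its islands had ratios of 0.663 and 1.05.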

How the data were processed

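Islands came from a SICER2 table of H3K36me2 in 3 mutant and 3 WT epidermis libraries. The submitters' processing notes name Bowtie2, SICER, DiffBind and DESeq2 without versions, and the build GRCm38 (mm10). Per the file headers, the authors deposited read counts pooled by genotype. The deposited RPM values equal those counts divided by 59539924 mutant and 47361190 WT reads. The deposited fold is a ratio with 1 read added to each pool. The deposited p-value and FDR of an island exist for either direction. The authors' DiffBind tables give log2 mean normalised reads per genotype and a log2 fold for windows of 401 bp, of which 18072 were tested per mark. The H3K36me2 window folds are shrunken towards 0, so levels are given instead. Calling settings, duplicates and spike-in are not stated in these sources, and PCR copies are not independent molecules.

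An island was called lower or higher at the authors' FDR under 0.05. Ratios are mutant over WT RPM with no read added, and exact (Clopper-Pearson) 95% binomial intervals cover counting error only. With pooled columns there was no test across animals, and correlations over islands are descriptions. Genes were the 21887 protein-coding genes used from the RefSeq table of GRCm38.p6, and strand came from its promoter table, which holds none for chromosome 18. An island in several genes took the longest. GC content of islands was not analysed here, and some genes of the lists are not reported here.

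The members and lists were chosen with earlier results of these data known. Named islands were the 8 largest and 8 smallest ratios past the FDR with at least 50 reads, 1 per host gene, the 4 densest, the 5 genes with most lower and most higher members, up to 3 genes per list by FDR, and 8 H3K27me3 windows each way by p. Further genes of a list, the genes with most members and the Efcab1 island were named after their values were seen. Python 3.11.15, pandas 2.3.3, numpy 2.4.6, SciPy 1.17.1 and matplotlib 3.10.9 were used, and the interval and the binomial test were tested on simulated data.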

Additional observations from a re-analysis of the deposited data

How the results depend on the processing

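Of the 65 values recomputed under other settings, 54 stayed within the spread of islands or within 1.5 times the main count, 9 moved and 2 changed sign. Main values were 1828 members lower, 1417 higher and a median log2 ratio of -0.03. Relative to the all-island median, 225 members were lower and the median was 0.26, a change of sign that follows from the division. The exact binomial test called 903 members higher. An FDR of 0.001 left 1152 lower and 784 higher. A fold of at least 1.5 left 396 lower and 371 higher. A gene length limit of 100 kb left 812 lower and 800 higher among fewer islands, with a median of 0.048. Letting genes of every type set bodies and ends gave a median of -0.094. The medians by gene length, distance and part of the gene kept their sign under a minimum of 100 reads, a 5 kb margin and medians over host genes, except that the margin leaves no class of 1 to 5 kb. The shortest gene was tried for gene length alone, and those medians kept their sign. Leaving out islands over 3 RPM per kb or chromosome 12, both chosen after seeing the data, kept the 3 main values within those limits. No paired analysis was possible because the genotypes share no animal and no column per library exists, and for the same reason no library could be left out. Depth limits single islands: the medians of 173 mutant and 149 WT reads give ratios with wide counting intervals.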

Other observations

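Of the 44 members with a rising H3K27me3 window, 3 in genes known from leukocytes were picked after their values were seen. The fixed immune marker list held 1 member, in Itgam, with no such window. The island in Stat4, a cytokine signalling gene of lymphocytes, had 98 mutant and 151 WT H3K36me2 reads, a ratio of 0.516 (exact 95% binomial interval 0.396 to 0.670), and the H3K27me3 window in it had 10.8 mutant and 3.33 WT mean normalised reads in the authors' deposited table. The island in Itga4, a leukocyte integrin gene, had 75 mutant and 112 WT reads, a ratio of 0.533 (0.392 to 0.720), and the window in it had 5.98 mutant and 1.01 WT mean normalised reads in the authors' deposited table. The island in Cd28, a T cell co-stimulator gene, had 150 mutant and 185 WT reads, a ratio of 0.645 (0.517 to 0.804), and the window in it had 9.83 mutant and 1.88 WT mean normalised reads in the authors' deposited table. The part of immune cells in these values was not tested.

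2 members carried a rising H3K27me3 window and a higher H3K36me2 call together. In Atg7, which encodes an autophagy activating enzyme, the island of 707 mutant and 452 WT reads had a ratio of 1.24 (1.10 to 1.40). In Xdh, the xanthine dehydrogenase gene, the island of 380 mutant and 265 WT reads had a ratio of 1.14 (0.972 to 1.34), an interval that includes 1. The H3K27me3 window in Xdh had a WT mean at the floor of 1 read.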
